A study of Mus musculus with 11 samples.

Results

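The 8 mouse genes examined for accessible chromatin in MPC2 cells either move phosphate or govern whether it settles as bone mineral (Slc20a1, Slc20a2, Enpp1, Ank, Alpl, Phospho1, Fam20c and Phex). A region was taken as belonging to a gene when it overlapped the gene or the 20 kb before it, called its window here, in the GENCODE annotation of the mm10 genome. These 8 of 21938 coding genes held 69 of the 94963 regions in the list. Genes were chosen for their function and not for their accessibility, but with earlier results of these data known.

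MPC2 is a mouse mesenchymal progenitor line made from 1 clone and immortalised conditionally, so that it divides at a permissive temperature and forms osteocyte-like cells in medium with beta-glycerophosphate and ascorbic acid. ATAC-seq, which marks open chromatin by where the Tn5 transposase cuts, was performed on 3 undifferentiated (MSC) samples with DMSO vehicle, 3 MSC samples with FG-4592, 2 osteocyte samples with vehicle and 3 osteocyte samples with FG-4592. FG-4592 (Roxadustat) inhibits the prolyl hydroxylases that mark the hypoxia-inducible factors (HIF) for degradation, and it was given at 50 uM. Vehicle and drug were each left for 48 hours, and osteocytes had been differentiated for 3 weeks. The authors removed 1 sample with quality issues, which they did not name. All samples came from the same line, and the labels did not say whether replicates were separate cultures.

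The list gave 1 value per region for all 11 samples together. That value, called the level, was read as the average log2 CPM, where CPM is Tn5 cuts scaled to library size. The effects of differentiation and of FG-4592 that the design addresses could therefore not be measured from this list, the depth of each sample was unknown, and no value below has a replicate error or a test. A region open in all 4 groups cannot be told apart from a region open in 1 of them, nor can strong opening in few cells be told apart from weak opening in many. Of the marker genes examined, 5 of 6 for mesenchymal progenitors and 6 of 9 for osteoblasts and osteocytes had a region within 1000 bp of an own transcript start, beside 64.1% of all coding genes, so the osteoblast and osteocyte markers stood near that background. Thy1, Sost, Mepe and Pdpn lacked one. Among markers of other lineages, Ptprc, Cd3e, Cdh5, Epcam, Myod1 and Alb lacked one, and Pecam1, a marker of endothelium, had one at 1.89 log2 CPM.

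Bone mineral forms when inorganic phosphate and calcium crystallise in the collagen matrix, starting in vesicles shed by osteoblasts. Pyrophosphate, made outside the cell from ATP, blocks crystal growth, and alkaline phosphatase removes it and frees phosphate. Osteocytes, the cells buried in that matrix, also govern phosphate in the whole body through the hormone FGF23, whose level rises when Phex or Fam20c is lost.

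Each of the 8 genes had at least 1 region in its window, as did 79.5% of all coding genes. A region was present in 7 of the 8 within 1000 bp of a start of their own transcripts, against 64.1% of coding genes, and Phex was the exception. In all 7 the region contained the main start itself, the 5' end of the gene. More regions than in most coding genes within 20% of their length were found at 7 of the 8, beside 42.8% of all coding genes, and at 5 when only comparison genes with a region at a start were used. Of the 69 regions, 14 lay within 1000 bp of an own start, 49 elsewhere in the gene and 6 upstream. Counting starts of any gene, 16 regions or 23.2% lay at a start, beside 22.7% of the whole list. Most of the regions were intronic: 48 lay wholly within 1 intron, 31 of them in intron 1, while 15 touched an exon, 8 a coding exon and 3 a 3'UTR.

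The 69 regions had a median width of 495 bp (range 200 to 1704 bp), beside 460 bp for the whole list. Their median level was 2.45 log2 CPM, with a range from 0.32 to 6.30, beside 2.12 for the whole list. Of these, 6 ranked in the top 10% of the list. Wider regions collect more cuts, so each level was also placed among regions whose width differed by at most 10%. The median region was then higher than 50.9% of regions of like width, and 35 of the 69 lay above the middle. The regions thus stood near the middle for their width.

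**Figure D1:**
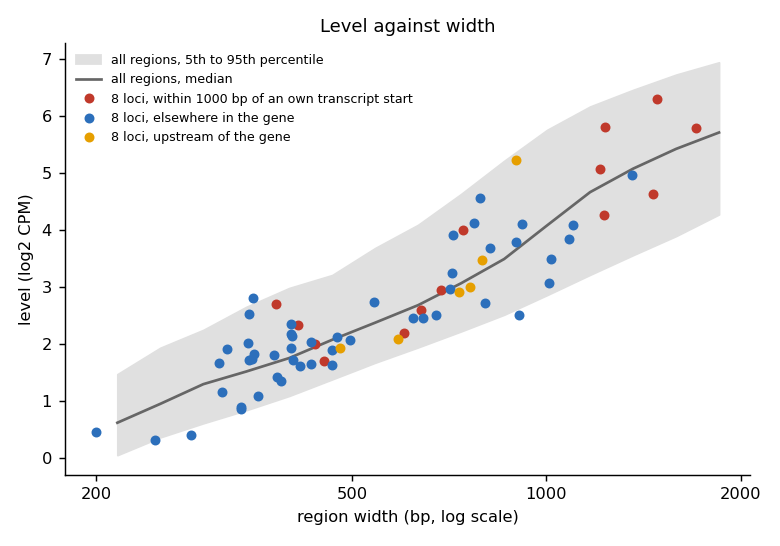
Level (log2 CPM) of each of the 69 regions against its width (bp, log scale), coloured by position relative to the gene, over the median (line) and the 5th to 95th percentiles (band) of all regions. Points lie on both sides of the line, 35 of them above the middle for their width, and the highest, at 6.30, is the region at the start of Slc20a1.

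Regions at own starts were fewer than those elsewhere in the genes but, by their medians, wider and higher. The 14 regions at own starts held 44.1% of the summed 729.6 CPM of the loci, with a median level of 3.47 and a median width of 713.5 bp. The 49 regions elsewhere in the genes held 46.1%, with a median level of 2.13 and a median width of 431 bp. The 6 upstream regions held the remaining 9.87%. The 7 regions at main starts had a median level of 5.08, beside 5.03 for the start regions of all coding genes that had one.

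**Figure D2:**
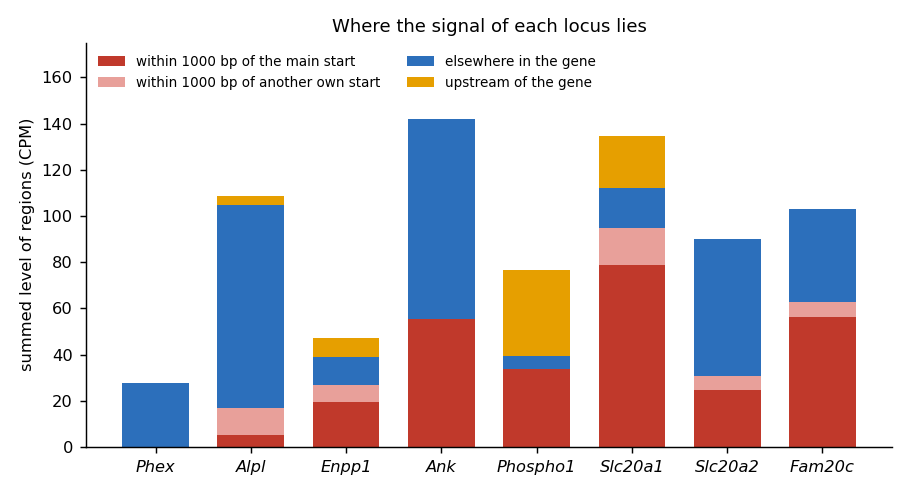
Summed level (CPM) of the regions in each window, stacked by position in the gene, as 1 pooled value per gene. Main starts hold 58.5% of the CPM at Slc20a1 and 4.63% at Alpl, and Phex, at 27.7 CPM in all, has none at a start.

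The main starts also differed in base composition. A start was counted as CpG-rich when the bases within 500 bp had at least 55% GC and an observed over expected CpG ratio of at least 0.6, a property of the DNA and not of the assay. This was met by 7 members, with ratios from 0.69 at Alpl to 1.04 at Slc20a2, and Phex did not, with 38.8% GC and a ratio of 0.35. Of the 8406 coding genes with a CpG-rich main start, 91.7% had a region within 1000 bp of any own start. Of the 13532 without, 46.9% did. Each of the 8 members thus had the commoner outcome of its class, a region at an own start in the 7 CpG-rich members and none in Phex.

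Promoters of 3 members are printed to show this range, Slc20a1 with the highest start region, Alpl with the lowest and Phex with none. Each is the 250 bases before the start in RefSeq (GRCm38.p6), read 5' to 3' on the strand of the gene, with every CpG in capitals. Slc20a1 lies at chr2:129198523-129198772 (+), Alpl at chr4:137796385-137796634 (-) and Phex at chrX:157415287-157415536 (-).
Slc20a1: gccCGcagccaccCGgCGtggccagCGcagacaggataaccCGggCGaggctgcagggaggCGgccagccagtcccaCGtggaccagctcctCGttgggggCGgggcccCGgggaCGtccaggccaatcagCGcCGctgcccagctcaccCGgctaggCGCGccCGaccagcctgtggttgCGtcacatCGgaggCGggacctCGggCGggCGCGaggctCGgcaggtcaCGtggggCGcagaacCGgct
Alpl: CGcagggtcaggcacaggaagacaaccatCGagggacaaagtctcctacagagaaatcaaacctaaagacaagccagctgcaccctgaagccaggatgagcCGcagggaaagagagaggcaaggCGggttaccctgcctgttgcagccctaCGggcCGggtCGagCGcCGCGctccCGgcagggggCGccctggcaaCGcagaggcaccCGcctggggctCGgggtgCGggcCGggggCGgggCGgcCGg
Phex: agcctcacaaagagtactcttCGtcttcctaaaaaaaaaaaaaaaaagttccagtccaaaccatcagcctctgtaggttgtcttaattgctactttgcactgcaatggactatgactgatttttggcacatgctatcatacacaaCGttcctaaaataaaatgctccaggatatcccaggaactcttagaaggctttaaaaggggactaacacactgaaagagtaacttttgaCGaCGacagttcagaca
These stretches hold 29, 20 and 4 CpG, and their GC content is 75.2%, 68.4% and 39.2%. Of the 8 members, 7 were found in the RefSeq promoter table, and Slc20a2 was not.

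**Figure D3:**
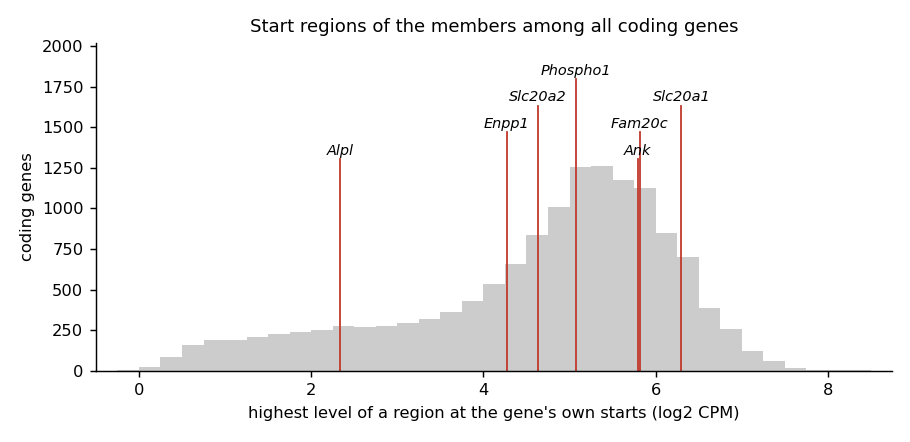
Histogram of the highest level (log2 CPM) of a region at an own start over the 14058 coding genes that have one, with red lines at 7 of the members. Alpl, at 2.33, stands in the low tail, above 11.8% of these genes, and Slc20a1, at 6.30, stands above 90.0%.

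The phosphate transporters come first. Slc20a1 encodes a sodium-dependent carrier that brings inorganic phosphate into cells (chromosome 2, 129198764 to 129211616, plus strand). Its start region, chr2:129197928-129199409, was 1482 bp wide and had a level of 6.30, which ranked 1223 in the whole list and was above 90.0% of coding genes' start regions. It contained exon 1 and part of intron 1 and overlapped a transcript start of the annotated locus Gm4430, so the level cannot be assigned to Slc20a1 alone. It carried 58.5% of the CPM of the locus.

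Slc20a1 had 5 further regions. Of these, 3 lay upstream, at -18497 bp (479 bp wide, level 1.93), -12251 bp (795 bp, 3.48) and -5982 bp (732 bp, 2.91), where distances run from the main start to the region's midpoint. The farthest of them also lay at a start of the antisense gene AI847159. Inside the gene, a region in intron 6 at +8156 bp (742 bp, 4.00) lay by a start of a shorter Slc20a1 transcript, and a region over exon 11 at +11776 bp (772 bp, 4.13) reached from coding sequence into the 3'UTR. Both also overlapped the annotated locus 9830144P21Rik, and they were higher than 85.2% and 84.5% of regions of like width. With 6 regions in a window of 32853 bp, Slc20a1 had more than 89.6% of 2324 coding genes within 20% of its length, which had a median of 2. Regions covered 15.2% of its window, the largest share among the 8.

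Slc20a2 encodes the second carrier of this family, whose loss in people causes calcification in the brain (chromosome 8, 22476788 to 22569612, plus strand). Its start region, chr8:22476156-22477620, was close to that of Slc20a1 in width, at 1465 bp, but had a level of 4.63, above 38.6% of coding genes' start regions and 27.8% of regions of like width. It also lay at a start of the coding gene Smim19. Of its 9 regions, the highest after the start lay in intron 1 at +15044 bp (1082 bp, 3.84) and in intron 2 at +59706 bp (896 bp, 3.79). The other region at an own start, at +29582 bp, had a level of 2.60, and the lowest, over exon 10, had 1.65. A region at +34544 bp was wide for its level, 908 bp at 2.50, and was higher than only 2.93% of regions of like width. Slc20a2 thus exceeded 68.7% of 1272 genes of similar length (median 6). The transporter genes thus differed in the share of CPM held by the main start, 58.5% at Slc20a1 and 27.6% at Slc20a2.

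**Figure D4:**
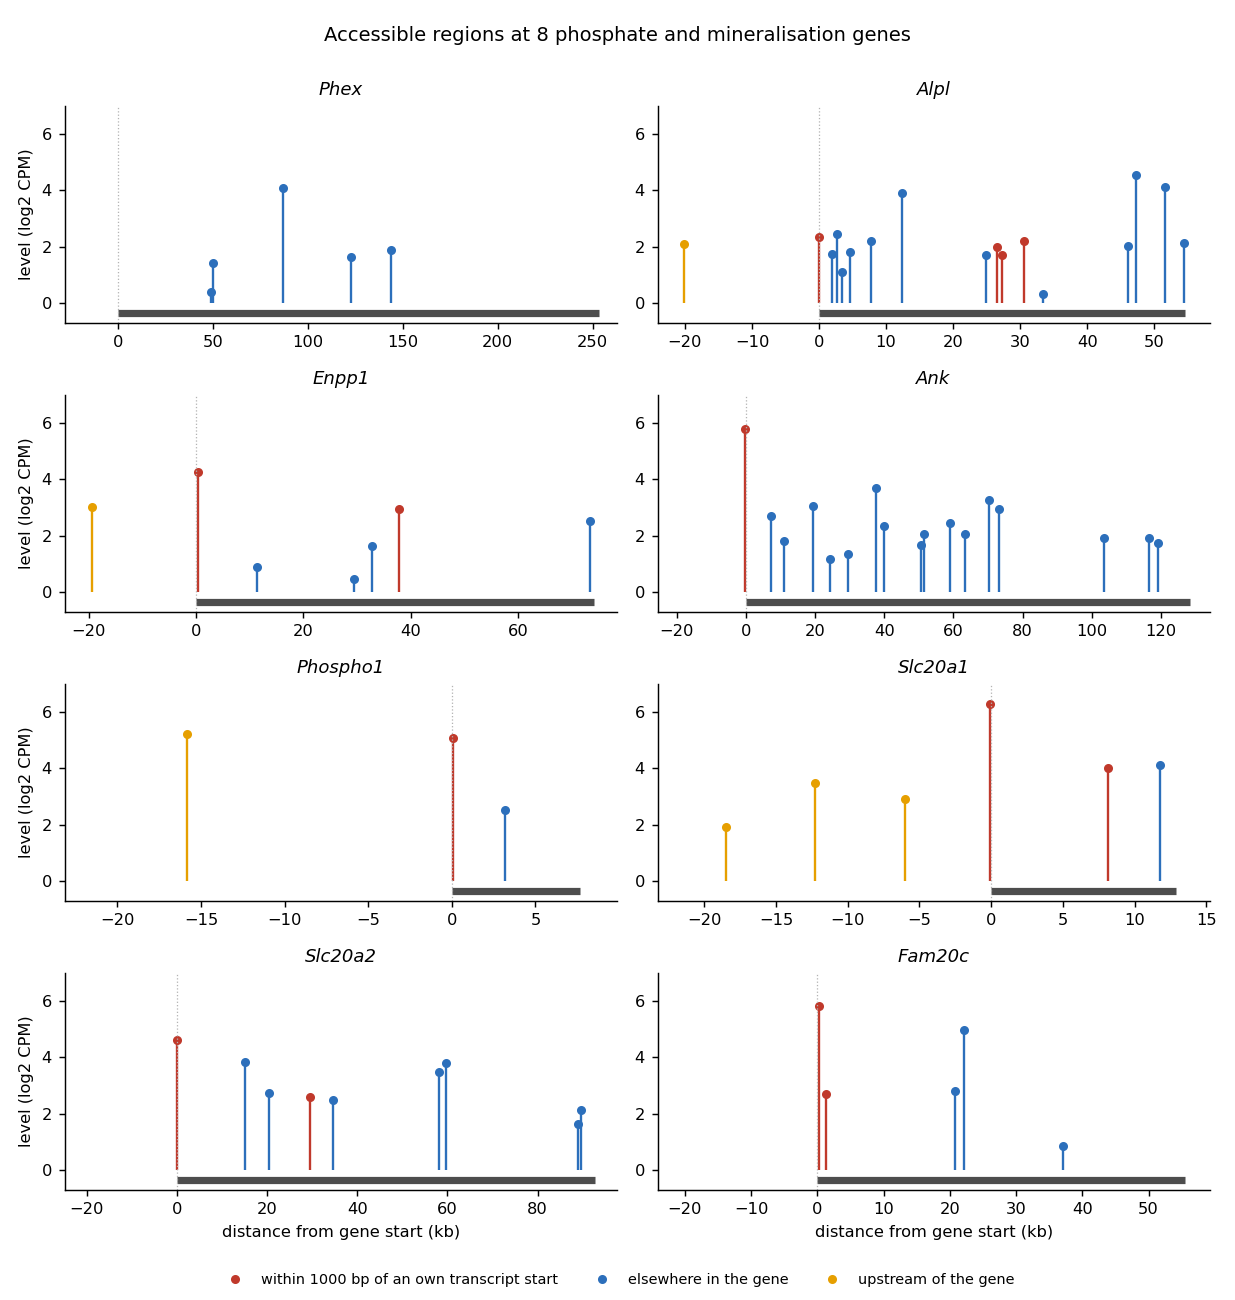
Level (log2 CPM) of each region, as a stem and point, against its midpoint's distance from the gene start (kb), with the gene as a grey bar and colours for regions at own starts, elsewhere in the gene and upstream. The highest point is at the main start in 5 genes, whereas it lies at +86805 bp in Phex, +47330 bp in Alpl and -15820 bp in Phospho1.

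The pyrophosphate genes were next. Enpp1 encodes the ectoenzyme that makes pyrophosphate from ATP (chromosome 10, 24637914 to 24712159, minus strand). Its start region, chr10:24711160-24712386, was 1227 bp wide with a level of 4.27, above 31.2% of coding genes' start regions. An upstream region at -19392 bp had a level of 3.00 (760 bp). Within the gene, intron 1 held regions at +11380 bp (336 bp, 0.89) and +29470 bp (200 bp, 0.45), and regions over coding exons lay at +32716 bp (exon 2, 465 bp, 1.62) and +37752 bp (exon 5, 685 bp, 2.95). The last of these lay at a start of another Enpp1 transcript. A region in the 3'UTR of exon 25 was 673 bp wide with a level of 2.51. With 7 regions Enpp1 exceeded 63.5% of 1449 genes of similar length (median 5), but its summed 47.0 CPM was above only 39.3% of them.

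Ank encodes a membrane protein through which ATP and pyrophosphate leave the cell (chromosome 15, 27466677 to 27594909, plus strand). Its start region, chr15:27465500-27467203, was the widest of the 69, at 1704 bp, with a level of 5.79, above 76.4% of coding genes' start regions. The remaining 16 regions all lay wholly in introns, 13 of them in intron 1, and had levels from 1.15 at +24210 bp to 3.69 at +37590 bp. The latter lay at a start of the annotated locus B230362B09Rik. Next in level were intron 1 regions at +70304 bp (713 bp, 3.25) and +19274 bp (1010 bp, 3.07). In introns 7 and 8, 3 regions overlapped the neighbouring gene Otulin. None of the 17 lay upstream of the start region. Ank had more regions than 88.4% of 984 genes of similar length (median 7.5), and its 141.8 CPM was the largest sum of the 8. Ank thus had more regions and a larger sum than Enpp1, with 39.1% of its CPM at the start beside 41.0% at Enpp1.

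Of the phosphatase genes, Alpl had 17 regions, as many as Ank, and Phospho1 had 3, the fewest of the 8. Alpl encodes tissue-nonspecific alkaline phosphatase, which hydrolyses pyrophosphate at the cell surface and is the classical marker of mineralising osteoblasts (chromosome 4, 137741733 to 137796384, minus strand). Its window of 74652 bp held 17 regions. Of 1780 coding genes of similar length, with a median of 4, 99.7% had fewer, 3 had as many and 3 had more. Counting only regions at least 500 bp wide, Alpl had 6, and 92.2% of these genes had fewer. Its summed level was above that of 82.2% of these genes. Regions were spaced by a median of 2260.5 bp, and the shortest gap was 211 bp. The window held 2.28 regions per 10 kb, the highest density of the 8, beside a median of 0.588 over coding genes.

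**Figure D5:**
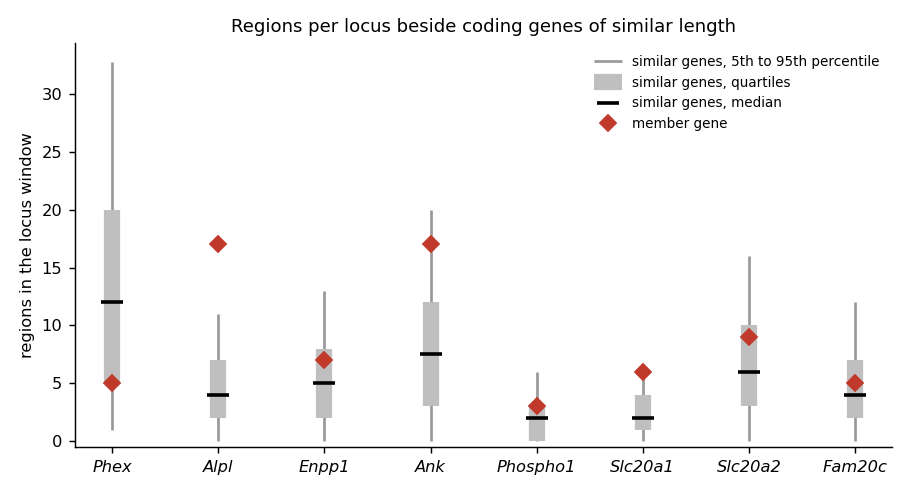
Number of regions in the window of each member (red diamonds) beside coding genes of similar length, with their median (black), quartiles (thick grey) and 5th to 95th percentiles (thin grey). Alpl, with 17, lies above the 95th percentile of 11, Phex, with 5, lies at the lower quartile, and the other 6 genes lie above the median.

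The many Alpl regions did not include a high one at the start. The start region, chr4:137796171-137796581, was 411 bp wide with a level of 2.33 and held 4.63% of the 108.8 CPM of the locus. It was above 11.8% of coding genes' start regions but above 80.8% of regions of its own width, so it was narrow and not low for its width. In intron 1, 3 regions lay by starts of shorter Alpl transcripts, at +26532 bp (level 2.00), +27322 bp (1.69) and +30614 bp (2.20). Within 8 kb of the main start lay the midpoints of 6 regions, with levels from 1.08 to 2.45.

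The highest Alpl regions lay in the body of the gene. They were in intron 7 at +47330 bp (790 bp, 4.55), in intron 9 at +51595 bp (915 bp, 4.11) and in intron 1 at +12426 bp (716 bp, 3.92), and were higher than 90.7%, 65.3% and 86.1% of regions of like width. The lowest, at +33346 bp, had a level of 0.32. Of the 17 regions, 14 lay wholly in introns and 11 of these in intron 1. The intron 7 region is shown because it was the highest of the gene, as the 200 bases with the most motif letters, chr4:137749208-137749407 (- strand, GRCm38), with 2 motifs in capitals, the core of the hypoxia response element (HRE) that HIF binds (CACGTG and CACGC) and the letters bound by TEAD factors (GGAATG).
Alpl intron 7: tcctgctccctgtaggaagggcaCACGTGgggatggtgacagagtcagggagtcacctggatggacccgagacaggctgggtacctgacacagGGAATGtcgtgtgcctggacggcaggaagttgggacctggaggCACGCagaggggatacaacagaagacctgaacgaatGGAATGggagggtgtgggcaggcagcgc
HRE cores and TEAD letters alternate along this stretch.

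Phospho1 encodes a phosphatase that frees phosphate from phosphocholine and phosphoethanolamine inside matrix vesicles (chromosome 11, 95824499 to 95832140, plus strand). With 3 regions in a window of 27642 bp, it exceeded 62.8% of 2117 genes of similar length (median 2), but 38.8% of those with a region at a start (median 3). The start region, chr11:95823975-95825183, was 1209 bp wide with a level of 5.08. The highest lay at -15820 bp, chr11:95808231-95809127, with a level of 5.22 over 897 bp, and held 48.6% of the CPM. The third, in intron 1, had a level of 2.52 over 346 bp. The upstream and intronic regions were higher than 93.5% and 93.0% of regions of like width. All 3 also lay inside the annotated span of Zfp652, a zinc-finger gene, so none can be assigned to Phospho1 by position alone. The upstream region is shown as the 200 bases with the most motif letters, chr11:95808418-95808617 (+ strand, GRCm38), with the letters bound by RUNX factors (ACCACA and TGTGGT) in capitals.
Phospho1 upstream: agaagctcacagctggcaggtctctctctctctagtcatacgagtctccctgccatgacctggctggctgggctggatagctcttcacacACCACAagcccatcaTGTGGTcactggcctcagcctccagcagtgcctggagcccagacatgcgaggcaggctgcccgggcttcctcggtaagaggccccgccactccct
The marked letters are the same RUNX motif read on opposite strands.

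Fam20c encodes the Golgi kinase that phosphorylates secreted proteins, among them FGF23 and the matrix proteins that bind mineral (chromosome 5, 138754514 to 138810077, plus strand). Its start region, chr5:138754180-138755412, was 1233 bp wide with a level of 5.82, above 77.1% of coding genes' start regions. Another region, over coding sequence of exon 1 at +1358 bp, had a level of 2.70 (380 bp). The other 3 lay in intron 3, at +20768 bp (351 bp, 2.80), +22168 bp (1359 bp, 4.96) and +37156 bp (336 bp, 0.85). The first of these was higher than 95.9% of regions of like width, the highest such share of the 69. With 5 regions, Fam20c exceeded 54.0% of 1749 genes of similar length (median 4), but 45.7% of those with a region at a start (median 5). Its start and wide intron 3 regions together held most of its 102.8 CPM. The wide region is shown as chr5:138776091-138776290 (+ strand, GRCm38), chosen in the same way, with RUNX letters (TGTGGT and TGCGGT) in capitals.
Fam20c intron 3: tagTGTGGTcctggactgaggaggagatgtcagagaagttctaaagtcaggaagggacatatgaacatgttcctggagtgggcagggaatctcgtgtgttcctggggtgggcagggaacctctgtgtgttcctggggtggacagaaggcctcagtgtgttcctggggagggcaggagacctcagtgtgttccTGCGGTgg
The marked letters lie near the ends of this stretch.

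Phex encodes a membrane endopeptidase of osteoblasts and osteocytes, and its loss causes X-linked hypophosphataemia (chromosome X, 157162075 to 157415312, minus strand). It was the longest member, at 253238 bp, and the only one with fewer regions than most genes of similar length. It had 5, whereas the median of 425 such genes was 12, and 72.7% of them had more. The comparison depended on the chromosome. Among the 18 genes of similar length on X the median was 3.5, and 77.8% had fewer than Phex, an alternative added after the data were seen. Of all 948 coding genes on X, 41.1% had a region at a start, and of the 776 without a CpG-rich start 32.7% did.

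All 5 Phex regions lay in introns, the nearest 48788 bp from the start. Intron 5 held regions of 281 bp at +48788 bp (level 0.39) and 382 bp at +49800 bp (1.41). Intron 11 held the highest, chrX:157327958-157329056, 1099 bp wide at +86805 bp with a level of 4.08. Intron 12 held regions at +122752 bp (414 bp, 1.62) and +143559 bp (465 bp, 1.89). The intron 11 region supplied 61.2% of the 27.7 CPM of the locus, the largest share held by 1 region in any of the 8 genes, and was higher than 38.4% of regions of like width. Among the 3522 of these that lay away from transcript starts it was higher than 57.6%, a comparison added after the data were seen. Regions covered 0.967% of the Phex window. The highest region is shown as chrX:157328059-157328258 (- strand, GRCm38), with TEAD (CATTCC) and RUNX (ACCACA) letters in capitals.
Phex intron 11: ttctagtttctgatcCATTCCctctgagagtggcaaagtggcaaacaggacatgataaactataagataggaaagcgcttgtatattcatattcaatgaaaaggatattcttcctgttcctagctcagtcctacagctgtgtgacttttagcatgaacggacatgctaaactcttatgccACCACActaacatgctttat

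On both strands of the whole regions, 4 short motifs were counted. They were the HRE core, the letters bound by HIF (ACGTG or GCGTG), AP-1 (TGACTCA or TGAGTCA), RUNX, the family of the osteoblast factor RUNX2 (TGTGGT or TGCGGT), and TEAD, the partners of the YAP and TAZ coactivators (GGAATG). None of the 4 contains another, although sites of different motifs can share bases, and a match is a description of the DNA, not a bound site. The share of regions with a match varies with width, so counts are set beside the share in regions of like width.

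An HRE core was present in 32 of the 69 regions (46.4%), beside 46.2% of the whole list and 49.9% at like width. AP-1 letters were present in 13 (18.8%), beside 22.1% of the list and 24.2% at like width. RUNX letters were present in 33 (47.8%), beside 48.2% and 52.3%. TEAD letters were present in 30 (43.5%), beside 31.5% and 34.6%, with no test of the difference. The first 3 motifs thus stood below the share at like width, and TEAD stood above it, by 30 regions against 23.9 with these letters and by 11 against 10.0 when only the central 200 bp were searched. AP-1 changed side there, with 9 regions against 8.71. None of the 4 was found in 10 regions.

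By position, all 7 main-start regions held an HRE core, and they held 39 of the 77 HRE sites, with 9 each at Slc20a1 and Slc20a2. At least 1 core is held by 36.0% of regions of like width to the Alpl start region. For the other main-start regions this share runs from 84.0% at Phospho1 to 94.9% at Ank. The number of sites at like width was not computed. Of the 14 regions at own starts, 11 held a core, where like widths would give 8.90. AP-1 letters were in 1 of these 14, where like widths would give 3.63. At Ank 8 of 17 regions held an HRE core, 3 RUNX, 5 AP-1 and 7 TEAD letters. Like widths would give 7.95, 8.55, 4.02 and 5.59 there. At Phex none of the 5 regions held an HRE core, 3 held RUNX, 2 AP-1 and 1 TEAD letters, where like widths would give 2.2, 2.3, 1.1 and 1.5. At Alpl 9 of 17 regions held an HRE core, 7 RUNX, 1 AP-1 and 8 TEAD letters, where like widths would give 7.14, 8.09, 3.97 and 5.22. With so few regions per gene, nothing particular to any of these genes is read from these counts. Main-start regions had CpG ratios from 0.72 to 0.98, while the other 62 had ratios from 0 to 0.72 with a median of 0.22. The HRE core holds a CpG, and whether CpG content bears on these counts was not tested.

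At the edge of the window, the farthest region inside was at Alpl, with its midpoint at -20182 bp and a level of 2.09, and then at Enpp1, at -19392 bp and 3.00. Just outside lay regions at -22262 bp of Slc20a2 (2.36), -22923 bp of Slc20a1 (2.96), -23356 bp of Fam20c (0.80) and -23736 bp of Phospho1 (4.53), the highest of these 4.

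Among 29 other genes of phosphate and mineral handling, 24 had a region at an own start, beside 64.1% of all coding genes. By role these were 3 of 6 genes of phosphate transport, all 5 of pyrophosphate and nucleotides, all 5 of matrix vesicles, all 3 inhibitors of mineral, 6 of 8 of the hormonal axis and both kinases. The genes lacking one were the carriers Slc34a2 and Slc34a3, the transport scaffold Pdzk1, the FGF23 coreceptor Kl, and Mepe, a matrix protein of osteocytes. The median was 5 regions per window. Most were at Anxa6, an annexin of matrix vesicles (14), Smpd3, a sphingomyelinase needed for mineralisation (13), and Fam20a, the partner of Fam20c (12). Kl had 0. In 22 of the 29, the gene had more regions than the majority of genes of similar length, beside 42.8% of all coding genes.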

How the data were processed

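ATAC-seq libraries from 11 MPC2 samples in 4 groups, assigned by their labels, lay behind 1 list. The authors trimmed reads with Trim Galore, aligned them to mm10 with Bowtie2, removed duplicates with Picard 2.17.8, called peaks with MACS2 2.2.7.1, merged them, removed blacklisted regions, counted Tn5 cuts and normalised and tested them with edgeR 3.24.3. Before normalising, they filtered out regions with few cuts. Whether reads were shifted for the Tn5 offset, and whether the list was made after that filter, was not given in the sources used here. A merged region is as wide as the union of its peaks, so width depends on how many libraries contributed.

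The deposited value of each region was read as the average log2 CPM over all samples, because 460 values lay below 0 and the values, taken out of log2, had a sum of 1012760, close to what CPM gives for a whole library. The list held 1 value per region and none per sample, so the depth was unknown. No comparison between groups was made, although FG-4592 against vehicle and osteocytes against MSCs had been planned. All shares describe the pooled list.

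Coordinates are mm10 and 1-based. Genes came from GENCODE vM21, and 0 regions ran past a chromosome end. Windows began 20 kb upstream, starts were given 1000 bp on either side, similar length meant within 20% and similar width within 10%. All members were named, with every region, or beyond 8 regions those at own starts, the 3 highest and the lowest, and other regions by counts and range. A few further regions were singled out after their values were seen. Of 29 other genes, the 3 with most regions and those without any were named. For 1 marker of other lineages the result is not reported here. Members and lists were chosen with earlier results of these data known. Alternatives were other windows, widths, levels, comparison genes and motif letters. Python 3.11.15, numpy 2.4.6, pandas 2.3.3 and scipy 1.17.1 were used, and the counting was tested on simulated data.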

Additional observations from a re-analysis of the deposited data

How the results depend on the processing

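No paired analysis was possible because samples were pooled into 1 value per region, and leaving out replicates could not be run for the same reason. The 69 regions became 34 when only those at least 500 bp wide were kept and 45 when only those of at least 2 log2 CPM were kept, and they numbered 63 to 97 under the other windows and ways of counting. Stricter motif letters lowered the regions with an HRE core from 32 to 18 (ACGTG alone), with RUNX letters from 33 to 13 (TGTGGTT) and with TEAD letters from 30 to 11 (GGAATGT), where like widths would give 20.1, 13.8 and 8.40. Searching only the central 200 bp gave 12, 16 and 11, where like widths would give 16.8, 17.9 and 10.0. AP-1 counts were 15 and 9 beside 13, where like widths would give 21.3 and 8.71 beside 16.7, so AP-1 changed side in the central 200 bp. The number of members with a start region was 7 in each of the 4 alternatives, although with regions at least 500 bp wide the main-start region of Alpl (411 bp) dropped out and Alpl counted only through a region of 602 bp at the start of a shorter transcript, and the summed level ranged from 605.9 to 945.0 CPM beside 729.6. The number of members with more regions than most genes of similar length, 7, ranged from 5 to 8. Of 64 recomputed shares for single genes, 40 moved outside the 95% Wilson interval, which covers counting error only, and 60 stayed on the same side of 50%. The exceptions were Phospho1 (38.8%) and Fam20c (45.7%) beside genes with a start region, Fam20c (41.6%) with regions at least 500 bp wide, and Phex (77.8%) beside genes on X. The comparisons within a chromosome, at a width within 5% and within regions at or away from starts were chosen after seeing the data, and in the last 2 the median region was higher than 50.8% and 48.2% of regions. The cause of these shifts was not tested.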

Other observations

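Between 20 and 50 kb upstream of the 8 genes lay another 28 regions, with levels from 0.17 to 5.17 log2 CPM. Phospho1 had 6 of them, Slc20a1 and Slc20a2 5 each, Fam20c 4, Alpl 3, Enpp1 and Ank 2 each and Phex 1. The highest was at Phospho1, at -46262 bp, and all 6 regions there lay inside Zfp652. With the window widened to 50 kb, Phospho1 had more regions than 88.8% of genes of similar length, beside 62.8% at 20 kb. The highest levels at the other genes were 3.55 at Slc20a2, 3.41 at Slc20a1, 3.28 at Ank, 3.23 at Alpl, 1.63 at Fam20c, 1.37 at Enpp1 and 0.17 at Phex.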
